A study of Mus musculus with 12 samples.

Results

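Toll-like receptors are the pattern-recognition receptors with which myeloid cells read lipoproteins, lipopolysaccharide and nucleic acids of microbes. The 10 genes described here were set by name and not by a filter on their values, but with earlier results of these data known. The set holds the surface receptors Tlr1, Tlr2, Tlr4 and Tlr6, the co-receptor Cd14, the endosomal receptors Tlr7, Tlr8, Tlr9 and Tlr13, and the adaptor Myd88. These genes are 10 of the 24028 in each of the 2 deposited count tables, and all 10 were found by NCBI gene ID and passed the filter on low counts in both comparisons. RNA was sequenced from 12 libraries of C57BL/6 mouse bone marrow, 3 in each of 4 groups. The iMLL-ENL total group held leukemic cells of total marrow from mice that carry MLL-ENL, a fusion oncogene of acute leukemia, as a knock-in induced by doxycycline. The wt LSK group held wild type control marrow cells taken by FACS after lineage depletion with the surface markers c-Kit and Sca-1, a gate that holds stem cells and multipotent progenitors. B220 HIGH and B220 LOW were leukemic cells of the same iMLL-ENL genotype, sorted for high or low B220, an isoform of CD45. All leukemic mice had doxycycline until acute leukemia, and the labels do not give it for the controls. Total marrow is unsorted and wt LSK is a rare sorted compartment, so genotype, doxycycline and cell composition cannot be told apart in that comparison. The labels give 3 animals per genotype, neither age nor sex, and no mouse for a library, and each p-value therefore rests on the spread from library to library, which may be technical in part.

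As background, TLR2 binds bacterial lipoproteins as a pair with TLR1 or TLR6, and TLR4 binds lipopolysaccharide that CD14 hands to its partner MD-2. TLR7 and TLR8 bind single-stranded RNA, TLR9 binds DNA with unmethylated CpG, and mouse TLR13 binds bacterial ribosomal RNA. All of these receptors signal through MyD88, which recruits the IRAK kinases and leads to NF-kappaB, AP-1 and inflammatory cytokines. In marrow most of these receptors are known from monocytes, neutrophils, dendritic cells and B cells, and some are also carried by stem and progenitor cells.

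The promoters of 4 members show the DNA beside the starts whose transcripts differed most in the first comparison among the 7 members with a listed window (Tlr1, Tlr8 and Tlr13) and that of the shared adaptor (Myd88). Each window holds 250 bases before the start and 50 after, on the gene's strand, from RefSeq for GRCm38.p6, and base 251 is the start. Capitals mark matches to any of the motifs searched on both strands: the PU.1 core GAGGAA, the C/EBP motif TTGCNNAA, the interferon response element (GAAA, any 2 bases, GAAA), the AP-1 motif TGANTCA and the NF-kappaB motif (GGGA, any base, TTTCC). PU.1 and C/EBP are factors of myeloid cells.
Tlr1, chr5:64933509-64933808, minus strand: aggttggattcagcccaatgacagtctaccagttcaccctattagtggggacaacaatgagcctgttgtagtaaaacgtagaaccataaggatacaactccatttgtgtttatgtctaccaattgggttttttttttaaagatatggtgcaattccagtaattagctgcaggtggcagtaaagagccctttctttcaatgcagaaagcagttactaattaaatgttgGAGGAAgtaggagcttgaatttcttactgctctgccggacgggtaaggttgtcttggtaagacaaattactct
Tlr8, chrX:167264280-167264579, minus strand: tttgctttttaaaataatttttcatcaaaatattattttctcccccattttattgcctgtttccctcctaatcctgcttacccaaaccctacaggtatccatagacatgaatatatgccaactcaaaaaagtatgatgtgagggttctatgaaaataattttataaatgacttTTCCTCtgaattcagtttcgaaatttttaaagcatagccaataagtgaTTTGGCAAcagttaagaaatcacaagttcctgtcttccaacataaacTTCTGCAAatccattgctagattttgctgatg
Tlr13, chrX:106143025-106143324, plus strand: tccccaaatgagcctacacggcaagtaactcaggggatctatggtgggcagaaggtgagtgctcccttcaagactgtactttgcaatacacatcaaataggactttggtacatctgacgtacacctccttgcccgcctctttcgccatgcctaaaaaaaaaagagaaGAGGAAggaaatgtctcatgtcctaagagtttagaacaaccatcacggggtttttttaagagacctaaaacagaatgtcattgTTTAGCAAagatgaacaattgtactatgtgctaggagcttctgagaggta
Myd88, chr9:119339969-119340268, minus strand: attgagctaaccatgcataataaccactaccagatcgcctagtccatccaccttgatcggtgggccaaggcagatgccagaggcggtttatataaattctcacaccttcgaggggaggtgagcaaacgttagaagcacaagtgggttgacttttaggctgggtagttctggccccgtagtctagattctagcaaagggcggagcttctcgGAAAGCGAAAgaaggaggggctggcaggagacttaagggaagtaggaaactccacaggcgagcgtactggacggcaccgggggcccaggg
The Tlr1 window, the farther upstream of its 2 listed starts, holds GAGGAA from base 228. The Tlr8 window holds the reverse form TTCCTC from base 174 and C/EBP matches from bases 222 and 269. The Tlr13 window holds GAGGAA from base 168 and TTTAGCAA, a C/EBP match on the other strand, from base 251. The Myd88 window holds an interferon response match, GAAAGCGAAA, from base 211. RefSeq's table had 9 windows for 7 of the 10 members, and Tlr4, Tlr7 and Cd14 were not in it. Over those 9 windows, the PU.1 core was found in 4, the C/EBP motif in 3, the interferon response element in 2, the AP-1 motif in 1 and the NF-kappaB motif in 0. Among all 32851 promoters of the table, 28.3% held the PU.1 core, 10.8% the C/EBP motif, 3.44% the interferon response element, 7.81% the AP-1 motif and 0.411% the NF-kappaB motif. These matches describe the letters of the windows and show no binding.

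Levels are given in CPM, counts scaled to a common library total, with mean ± SD over the 3 libraries of a group, in library order 1, 2 and 3. Library totals ran from 10921521 to 22706882 counts. The sorted groups were checked against marker genes. The 10 stem cell genes summed to 288 to 522 CPM in iMLL-ENL total against 3755 to 4287 CPM in wt LSK. The 12 monocyte and macrophage genes summed to 4397 to 12838 CPM in iMLL-ENL total against 376 to 740 CPM in wt LSK. The 10 B lineage genes summed to 11 to 110 CPM in B220 HIGH and 7.27 to 15.1 CPM in B220 LOW, where 3 of them had 0 counts in all 3 libraries, so B lineage transcripts were low in both sorts. B220 HIGH library 2 held the highest B lineage sum of the sorted leukemic libraries, and library 1 of that group was the lowest of its group for 8 of the 10 members. In iMLL-ENL total, library 3 was the highest for 8 of the 10, and in wt LSK library 2 was the highest for 7.

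**Figure D1:**
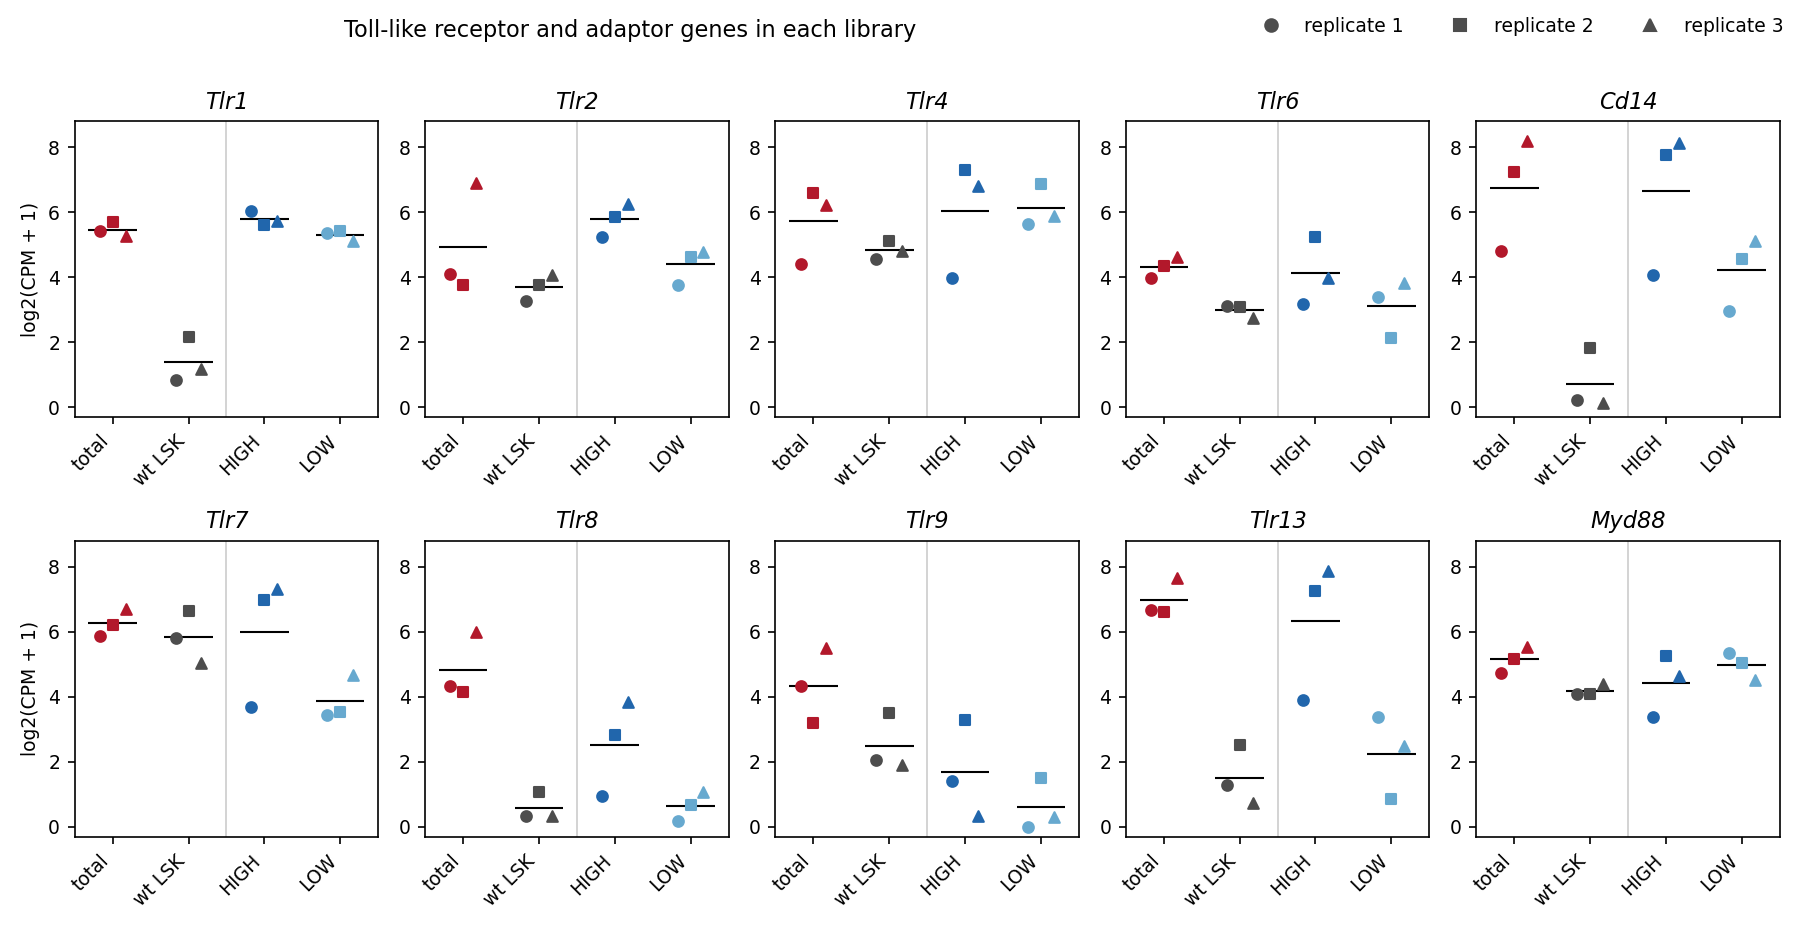
Level of each of the 10 genes in the 12 libraries, in CPM on a log2(CPM + 1) axis. Each point is 1 library, its shape gives the replicate number, and the line is the group's mean on this scale. Tlr1 stood at 33.6 to 65.1 CPM in the 9 leukemic libraries and at 0.806 to 3.51 CPM in wt LSK, while Tlr13 and Cd14 were lower in wt LSK and B220 LOW than in iMLL-ENL total by their means.

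The first comparison asks how total leukemic marrow differs from the normal stem and progenitor compartment. In iMLL-ENL total, 7 of the 10 genes were higher than in wt LSK and 0 were lower, by edgeR's quasi-likelihood test at an adjusted p under 0.05. Over all 13811 genes tested, 30.6% passed this threshold, 15.5% as higher and 15.1% as lower. The median log2 change was 2.27 over the 10 genes and 0.05 over all genes tested. The 7 were Tlr1, Tlr6, Tlr8, Tlr9, Tlr13, Cd14 and Myd88, and those that did not pass were Tlr2, Tlr4 and Tlr7. For 6 of them (the 7 without Tlr9) the 3 leukemic libraries all lay above the 3 wt LSK libraries, a pattern of 19% of all genes tested. In bulk RNA, more cells of a type and more RNA per cell cannot be told apart. Monocyte and macrophage markers moved the same way (9 of 11 tested rose), as did 8 of 10 mature neutrophil and 5 of 5 primary granule genes, while 10 of 10 stem cell genes fell, and their part in these results was not tested.

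**Figure D2:**
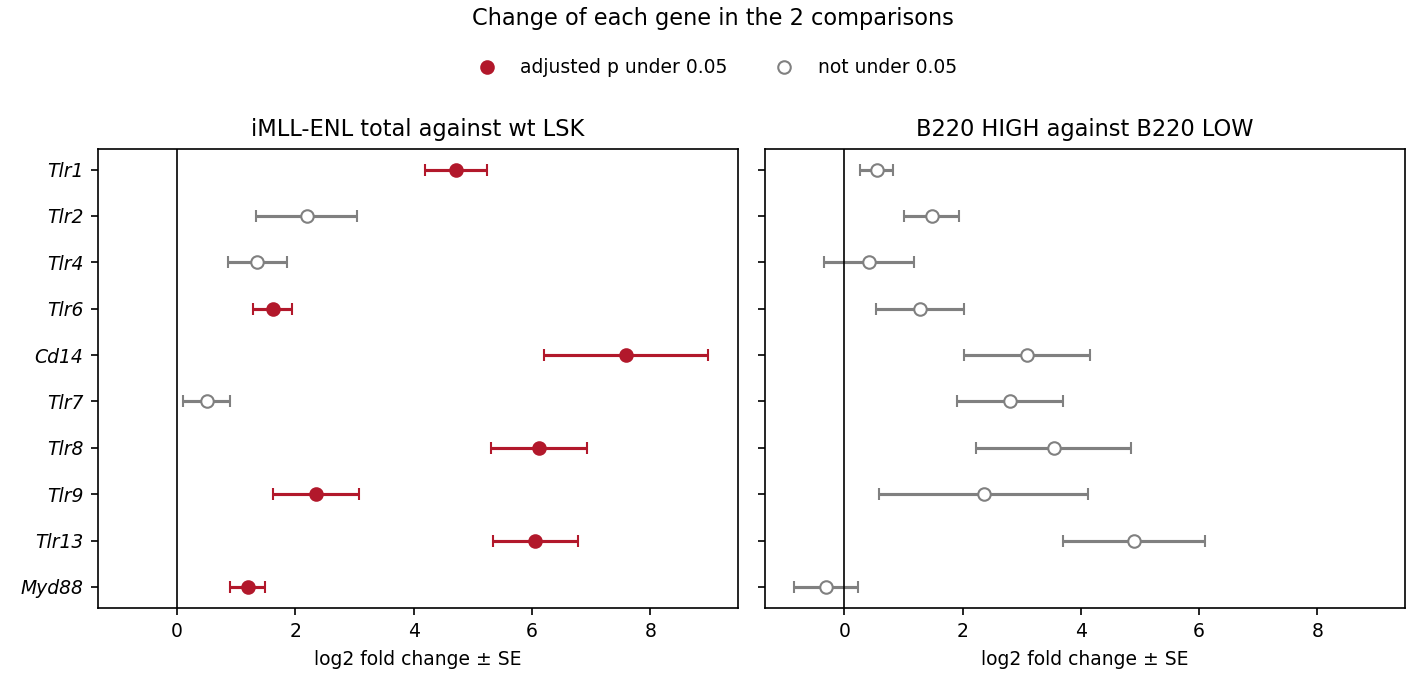
Log2 change of each of the 10 genes with its standard error, iMLL-ENL total over wt LSK and B220 HIGH over B220 LOW. Filled points passed an adjusted p under 0.05 in edgeR. Cd14, Tlr8 and Tlr13 had the largest changes against wt LSK, at 7.59, 6.12 and 6.06, and no point is filled for the B220 sorts.

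Among the lipoprotein receptors, Tlr1, the partner of TLR2 for triacylated lipoproteins (NCBI 21897, GRCm38 chr5:64924680-64933600), had 41.8, 51.0 and 37.7 CPM in iMLL-ENL total against 0.806, 3.51 and 1.28 CPM in wt LSK. The lowest leukemic library was above the highest normal one by a wide margin, and the leukemic libraries were close to each other. The log2 change was 4.72 (SE 0.52, edgeR adjusted p = 0.000404), and Tlr1 passed in all 13 alternative analyses. Tlr6, the partner of TLR2 for diacylated lipoproteins (NCBI 21899, chr5:64953092-64970942), had 14.8, 19.2 and 23.6 CPM in iMLL-ENL total against 7.68, 7.57 and 5.66 CPM in wt LSK. Those groups did not overlap either, at a smaller distance. Its log2 change was 1.62 (SE 0.33, edgeR adjusted p = 0.00692), and it did not pass in one fit over all 12 libraries (adjusted p = 0.106). The span of Tlr6 overlaps Fam114a1 on the opposite strand and Mir574, and the library kit keeps no strand, so its count is uncertain. The annotated exons of Tlr6 and Fam114a1 share 0 bases, and Fam114a1 averaged 13.5 ± 3.81 CPM in iMLL-ENL total against 15.9 ± 2.44 CPM in wt LSK.

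Tlr2, the common partner in both lipoprotein receptors (NCBI 24088, chr3:83836272-83841824), had 16.0, 12.6 and 120 CPM in iMLL-ENL total against 8.75, 12.5 and 15.9 CPM in wt LSK. Library 3 alone was high, and the other leukemic libraries lay within or just above the normal range. The log2 change of 2.19 (SE 0.85) did not pass (edgeR adjusted p = 0.0896). It was 0.30 without iMLL-ENL total library 3, and 2.62 with an adjusted p of 0.0352 without library 1. Tlr1 and Tlr6 lie next to each other on chromosome 5 with 19491 bases between them. Per kilobase of deposited gene width, the level of Tlr1 was 2.42, 2.28 and 1.37 times that of Tlr6 in iMLL-ENL total and 0.0898, 0.397 and 0.193 times in wt LSK. Tlr1 thus exceeded Tlr6 in every leukemic library of that table and stayed below it in every normal one.

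Of the lipopolysaccharide receptor genes, Cd14, the lipid-binding co-receptor of TLR4 and a monocyte surface marker (NCBI 12475, chr18:36725064-36726815), had 27.3, 150 and 295 CPM in iMLL-ENL total against 0.161, 2.58 and 0.102 CPM in wt LSK. The leukemic libraries spread widely and still did not overlap with the normal ones, 2 of which held only 3 and 2 counts. The log2 change was 7.59 (SE 1.39, edgeR adjusted p = 0.00663), it was 10.25 without wt LSK library 2, and limma-voom gave an adjusted p of 0.0721. Tlr4, the signalling receptor for lipopolysaccharide (NCBI 21898, chr4:66827551-66846581), had 20.3, 95.3 and 74.3 CPM in iMLL-ENL total against 22.5, 34.0 and 27.0 CPM in wt LSK. Leukemic library 1 lay below all of the normal libraries and the other two above. Its log2 change of 1.36 (SE 0.50) did not pass (edgeR adjusted p = 0.0727). It passed without iMLL-ENL total library 1 (1.79, adjusted p = 0.00151) and with DESeq2 (adjusted p = 0.0303). Of 6 co-receptor and ligand delivery genes tested beside them, Ly96, which encodes MD-2, did not pass (log2 change -0.86, edgeR adjusted p = 0.358).

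The endosomal receptors fell apart by gene. Tlr13, the receptor of bacterial ribosomal RNA (NCBI 279572, chrX:106143275-106160493), had 101, 97.3 and 201 CPM in iMLL-ENL total against 1.45, 4.72 and 0.663 CPM in wt LSK. Every leukemic library was far above every normal one, and the log2 change was 6.06 (SE 0.72, edgeR adjusted p = 0.000700). Tlr8 (NCBI 170744, chrX:167241123-167264329) had 19.1, 16.9 and 62.9 CPM in iMLL-ENL total against 0.269, 1.10 and 0.255 CPM in wt LSK, where the libraries held 5, 20 and 5 counts. The groups lay apart again, and the log2 change was 6.12 (SE 0.81, edgeR adjusted p = 0.00102). Tlr13 and Tlr8 passed in all 13 alternative analyses.

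Tlr9, the receptor of CpG DNA (NCBI 81897, chr9:106222598-106226876), had 19.2, 8.22 and 44.5 CPM in iMLL-ENL total against 3.17, 10.3 and 2.70 CPM in wt LSK. The groups overlapped, since wt LSK library 2 exceeded leukemic library 2. The log2 change was 2.35 (SE 0.72, edgeR adjusted p = 0.0400), and it passed in 6 of 13 alternative analyses. It did not pass without iMLL-ENL total library 3 (1.44, adjusted p = 0.140), without wt LSK library 1 (2.04, adjusted p = 0.150) or without wt LSK library 3 (2.03, adjusted p = 0.125). Plasmacytoid dendritic cells are known for Tlr7 and Tlr9. Their markers summed to 214 to 297 CPM in iMLL-ENL total against 370 to 694 CPM in wt LSK. Of 6 tested, 1 passed, as lower in leukemic marrow. Most of each sum was Tcf4, at 282, 175 and 274 CPM in iMLL-ENL total and 349, 479 and 334 CPM in wt LSK. Siglech had 2.27, 4.89 and 0.749 CPM in iMLL-ENL total against 2.31, 74.7 and 5.41 CPM in wt LSK. Library 2 of wt LSK, with the most Siglech, also had the most Tlr9 and Tlr7 of its group. The part of these markers was not tested.

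Tlr7 (NCBI 170743, chrX:167303380-167330574) had 58.1, 72.8 and 104 CPM in iMLL-ENL total against 55.7, 99.8 and 31.9 CPM in wt LSK. The groups overlapped, and per kilobase Tlr7 had the highest mean of the 10 genes in wt LSK, at 15.7 ± 8.65 CPM per kilobase. Its log2 change was 0.50 (SE 0.40, edgeR adjusted p = 0.381), and it passed in 0 of 13 alternative analyses, with changes between 0.16 and 0.91. Tlr8 and Tlr7 are neighbours on the X chromosome with 39050 bases between them. Per kilobase, the level of Tlr8 was 0.415, 0.292 and 0.763 times that of Tlr7 in iMLL-ENL total and 0.00608, 0.0139 and 0.0101 times in wt LSK. This ratio, formed within a library, was higher in every leukemic library than in any normal one.

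Myd88, the adaptor of all these receptors and of the IL-1 receptor family (NCBI 17874, chr9:119335934-119340018), had 25.6, 35.2 and 45.7 CPM in iMLL-ENL total against 16.2, 15.9 and 19.9 CPM in wt LSK. The groups did not overlap, at a distance far smaller than for Tlr1, Tlr8 or Tlr13. Its log2 change was 1.19 (SE 0.29, edgeR adjusted p = 0.0162), and it passed in 8 of 13 alternative analyses. It did not pass without iMLL-ENL total library 3 (0.89, adjusted p = 0.0506), wt LSK library 1 (1.12, adjusted p = 0.0791) or wt LSK library 2 (1.06, adjusted p = 0.0769).

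Per kilobase, levels of different genes can be set side by side. In iMLL-ENL total the order began with Cd14 at 94.8 ± 80.6, Tlr13 at 33.1 ± 14.6 and Tlr7 at 19.7 ± 5.88 CPM per kilobase (SD, n = 3) and ended with Tlr6 at 7.33 ± 1.68 and Tlr9 at 6.90 ± 5.36. In wt LSK it began with Tlr7, Myd88 at 9.10 ± 1.18 and Tlr4 at 7.24 ± 1.5, while Tlr1, Cd14, Tlr13 and Tlr8 lay below 1 CPM per kilobase. Normal LSK cells thus carried a readable level of Tlr7, Myd88, Tlr4 and Tlr2 and little of the other four named. The spread of Cd14 in leukemic marrow is nearly as large as its mean, so its place against Tlr13 is not separated by these libraries. In wt LSK, Tlr7 had 14.0, 25.1 and 8.02 CPM per kilobase, the last below the mean of Myd88. The first place of Tlr7 there is not separated either.

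The rest of the pathway was read from 10 lists of 94 genes, 93 of them in the tables and 85 tested. In iMLL-ENL total, 28 of the 85 passed, 17 as higher and 11 as lower, against 30.6% of all genes tested, and their median log2 change was 0.16. The lists therefore passed at about the background share and not in one direction. The count was 15 without wt LSK library 1 and 16 without wt LSK library 2. All 28 kept their direction in all 13 alternatives, and 7 passed in all 13, namely Ctsb, Ifi30, Tirap, Irak4, Irf1, Il1rn and Il1r1. Whichever library was left out, 12 passed, which were those 7 with Tlr5, Tlr12, Lbp, Ccl4 and Il18r1. How many of all genes tested held in these ways was not counted, so the 7 and the 12 have no background share.

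Of 8 genes that fold and transport endosomal receptors, 2 rose and 0 fell, and 15.5% of all genes tested rose. Unc93b1, the chaperone that carries TLR7, TLR8, TLR9 and TLR13 to endosomes, had 96.7, 110 and 216 CPM in iMLL-ENL total against 29.4, 70.6 and 31.1 CPM in wt LSK. The groups did not overlap (log2 change 1.87, edgeR adjusted p = 0.0120), but the call was lost without wt LSK library 1 or 3. Hsp90b1, the receptor-folding chaperone gp96, rose by 0.78 (edgeR adjusted p = 0.0268), a call that held in 1 of the 6 fits that left out a library. On the list of 6 endosomal proteases, 3 genes rose and 0 fell: Ifi30, which is a lysosomal thiol reductase and no protease, by 4.04 (edgeR adjusted p = 0.0019), Ctss by 2.23 (0.0118) and Ctsb by 1.73 (0.00453), with the last 2 encoding cathepsins that trim endosomal receptors.

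Among the other adaptors, Tirap, which bridges MyD88 to TLR2 and TLR4, was the 1 of 4 tested that passed. It had 65.8, 62.4 and 82.1 CPM in iMLL-ENL total against 20.6, 25.9 and 23.4 CPM in wt LSK. The groups were far apart, with a log2 change of 1.75 (SE 0.22, edgeR adjusted p = 0.000670). Over all genes tested, 15.5% rose and 15.1% fell, beside which the counts of these lists stand. Of 18 kinase and ubiquitin ligase genes, 4 rose and 0 fell. The 4 were Irak4, the first kinase bound by MyD88, by 1.05 (edgeR adjusted p = 0.00728), Irak2 by 1.89 (0.0197), Ikbke by 1.30 (0.0242) and Chuk, which encodes IKK-alpha, by 0.66 (0.0332). Of 12 transcription factors, Irf5 rose by 0.96 (edgeR adjusted p = 0.0305), while Irf1 fell by 1.59 (0.00177) and Jun fell by 1.45 (0.0221). Of 11 inhibitors, Tollip rose by 0.74 (edgeR adjusted p = 0.0342) and Sigirr fell by 1.19 (0.0143). Among these, Irak2, Ikbke, Chuk, Irf5, Jun, Tollip and Sigirr lost the call on leaving out at least 1 library.

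Receptors outside the 10 and the genes that the pathway induces went both ways, as did all genes tested (15.5% rose and 15.1% fell). Of 4 other Toll-like receptors, Tlr5, the flagellin receptor, had 3.61, 14.2 and 18.8 CPM in iMLL-ENL total against 1.29, 1.15 and 1.28 CPM in wt LSK (log2 change 3.46, edgeR adjusted p = 0.00455). Tlr12, a mouse receptor of profilin, was lower in leukemic marrow, with 2 counts there and 86 in wt LSK, a ratio of wt LSK over iMLL-ENL total of 47.4 (95% counting interval 12.7 to 398; edgeR adjusted p = 0.00736). Of 6 co-receptor and ligand delivery genes, Lbp rose by 1.31 (edgeR adjusted p = 0.00653), while Cd180 fell by 0.85 (0.0199), Hmgb1 fell by 0.89 (0.0342) and Cd36 fell by 1.90 (0.0352). Of 11 tested target genes, Il1rn, the IL-1 receptor antagonist, had 14.2, 61.8 and 37.1 CPM in iMLL-ENL total against 0.376, 0.823 and 0.306 CPM in wt LSK. It rose by 6.39 (SE 0.69, edgeR adjusted p = 0.000355). Il1b rose by 5.18 (edgeR adjusted p = 0.0246), a call lost without iMLL-ENL total library 3 or any 1 wt LSK library. The chemokine gene Ccl4 fell by 2.27 (edgeR adjusted p = 0.00474), and Il12a fell by 1.33 (0.0217).

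Of the 5 receptors that share MyD88 with the Toll-like receptors, 2 fell and 1 rose, beside 15.1% and 15.5% of all genes tested. Il1r1, the signalling IL-1 receptor, had 4.45, 5.06 and 2.82 CPM in iMLL-ENL total against 184, 185 and 161 CPM in wt LSK. The libraries of each group were close together, and the log2 change was -5.28 (SE 0.28, edgeR adjusted p = 1.4e-05). Il18r1 also fell, by 2.58 (edgeR adjusted p = 0.00717), while their relative Il1rap rose by 1.05 (0.0205), and the other 2 of the 5 did not pass. Spans of Ctsb, Irf5, Ccl4, Il1b and Il1rap overlap another counted gene, and those of Ifi30, Tirap, Ikbke and Ctss an annotated RNA gene or pseudogene outside the tables, so their counts carry the same doubt about strand.

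**Figure D3:**
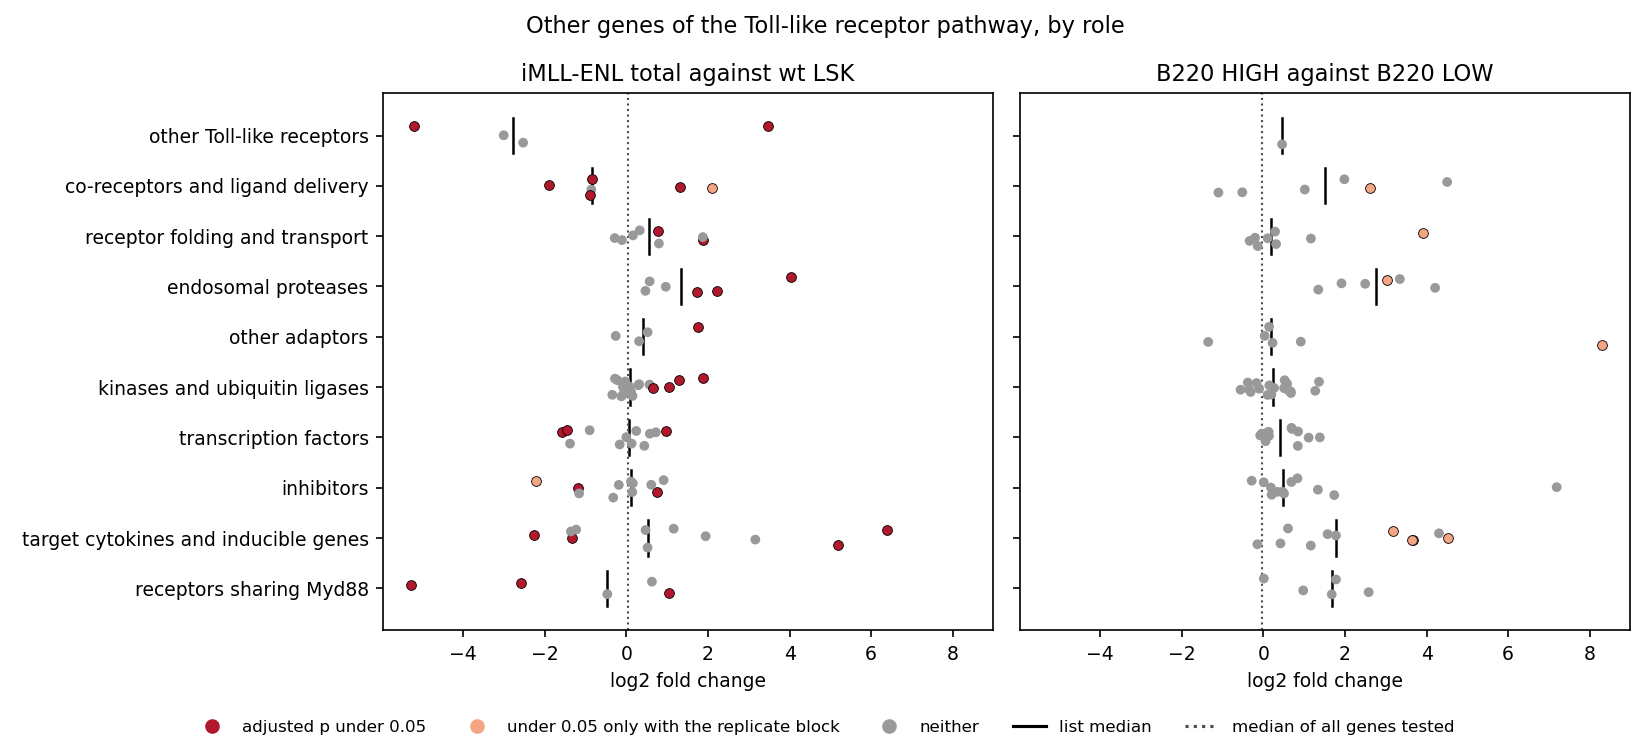
Log2 change of each tested pathway gene by list, iMLL-ENL total over wt LSK and B220 HIGH over B220 LOW. Each point is 1 gene, its colour gives the call, and bars give each list's median beside a dotted line at the median of all genes tested. In the first comparison the endosomal protease list and kinase genes that passed lie to the right of 0, Il1r1 lies at -5.28 and Il1rn at 6.39, and in the second comparison the genes that pass with the replicate block lie to the right of 0.

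The second comparison sets leukemic cells with high B220 against those with low B220. By edgeR's quasi-likelihood test 0 of the 10 genes passed an adjusted p under 0.05, as did 0 of all 12564 genes tested (0%). At an unadjusted p under 0.05 there were 5 of the 10, and 880 of all genes tested. Of the 10 estimates, 9 were above 0, with a median log2 change of 1.92 over the 10 genes and -0.03 over all genes. Of the 10, 3 had all B220 HIGH libraries above all B220 LOW libraries (Tlr1, Tlr2 and Tlr13), against 6.2% of all genes tested. Same-numbered libraries deviated together, and a fit with the replicate number as a block called 79 genes (0.629%), of which 73 were higher in B220 HIGH (0.581% of genes tested), and 1 of the 10, Cd14. DESeq2 called 302 genes (1.67%) and 3 of the 10, and limma-voom called 1 gene (0.00796%) and 0 of the 10. Without B220 HIGH library 1, edgeR called 96 genes (0.736%) and 3 of the 10.

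Tlr13 had 13.9, 154 and 232 CPM in B220 HIGH and 9.49, 0.818 and 4.57 CPM in B220 LOW. The groups did not overlap, but B220 HIGH library 1 was close to B220 LOW library 1. The log2 change was 4.90 (SE 1.2, unadjusted p = 0.00401, edgeR adjusted p = 0.377), and within replicate numbers 1, 2 and 3 the ratio of B220 HIGH to B220 LOW was 1.47, 188 and 50.7. Without B220 HIGH library 1 the change was 5.44 (edgeR adjusted p = 0.0261), and DESeq2 gave an adjusted p of 1.76e-05.

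Cd14 had 15.9, 217 and 278 CPM in B220 HIGH and 6.88, 22.6 and 33.5 CPM in B220 LOW. Only B220 HIGH library 1 reached into the range of the other group. The log2 change was 3.09 (SE 1.06, edgeR adjusted p = 0.605), and 2.61 with the replicate block (edgeR adjusted p = 0.0482). The ratios within numbers were 2.32, 9.58 and 8.29. Without B220 HIGH library 1 the change was 3.63 (edgeR adjusted p = 0.0401), and DESeq2 gave an adjusted p of 0.0183.

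Tlr7 had 11.8, 125 and 159 CPM in B220 HIGH and 9.89, 10.5 and 24.7 CPM in B220 LOW. Again B220 HIGH library 1 lay among the B220 LOW libraries and the other two far above. The log2 change was 2.80 (SE 0.90, edgeR adjusted p = 0.530), or 3.33 without B220 HIGH library 1 (adjusted p = 0.0295), and DESeq2 gave an adjusted p of 0.0248. Tlr8 had 0.916, 6.13 and 13.2 CPM in B220 HIGH and 0.131, 0.595 and 1.08 CPM in B220 LOW, with ratios within numbers of 6.99, 10.3 and 12.2 and a log2 change of 3.54 (SE 1.31, edgeR adjusted p = 0.633). Tlr8 was thus low in both sorts, and B220 LOW held 2, 8 and 18 counts.

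Tlr9 had 1.65, 8.77 and 0.253 CPM in B220 HIGH and 0, 1.86 and 0.241 CPM in B220 LOW. B220 HIGH library 2 carried most of its counts, and that library also held the most of the B lineage and plasmacytoid dendritic cell markers among the sorted libraries, with 66.7 CPM of Siglech. The log2 change of Tlr9 was 2.36 (SE 1.77, edgeR adjusted p = 0.873), and the part of those markers was not tested.

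Among the lipoprotein receptor genes, Tlr1 and Tlr2 had like ratios over the 3 numbers and Tlr6 did not. Tlr2 had 36.5, 57.2 and 75.9 CPM in B220 HIGH and 12.7, 23.9 and 26.6 CPM in B220 LOW. The groups did not overlap, and the ratios within numbers were alike, at 2.88, 2.39 and 2.85. Its log2 change was 1.48 (SE 0.47, unadjusted p = 0.0118, edgeR adjusted p = 0.494). Tlr1 had 65.1, 47.7 and 52.3 CPM in B220 HIGH and 40.4, 42.3 and 33.6 CPM in B220 LOW, with a log2 change of 0.55 (SE 0.28, edgeR adjusted p = 0.783). Tlr1 was well expressed in both sorts, with ratios within numbers of 1.61, 1.13 and 1.56. Tlr6 had 8.15, 37.0 and 14.9 CPM in B220 HIGH and 9.43, 3.35 and 13.2 CPM in B220 LOW, and the groups overlapped (log2 change 1.28, SE 0.75, edgeR adjusted p = 0.807). Its ratios within numbers were 0.864, 11.1 and 1.13, so number 2 stood apart.

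Tlr4 and Myd88 showed no common direction between the sorts. Tlr4 had 14.8, 156 and 111 CPM in B220 HIGH and 48.5, 117 and 57.6 CPM in B220 LOW, with a log2 change of 0.42 (SE 0.76, edgeR adjusted p = 0.963). Myd88 had 9.34, 37.1 and 23.9 CPM in B220 HIGH and 40.2, 31.7 and 21.8 CPM in B220 LOW, with a log2 change of -0.31 (SE 0.54, edgeR adjusted p = 0.960). For both genes the ratio within number 1 was below 1, at 0.306 for Tlr4 and 0.232 for Myd88, and those within numbers 2 and 3 were above 1. Over the 10 genes, B220 HIGH exceeded B220 LOW in 7 within number 1, and in all 10 within numbers 2 and 3. Within number 3, Tlr9 did so by 5 against 4 counts. The same count was not made over all genes tested, so no background share stands beside it.

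**Figure D4:**
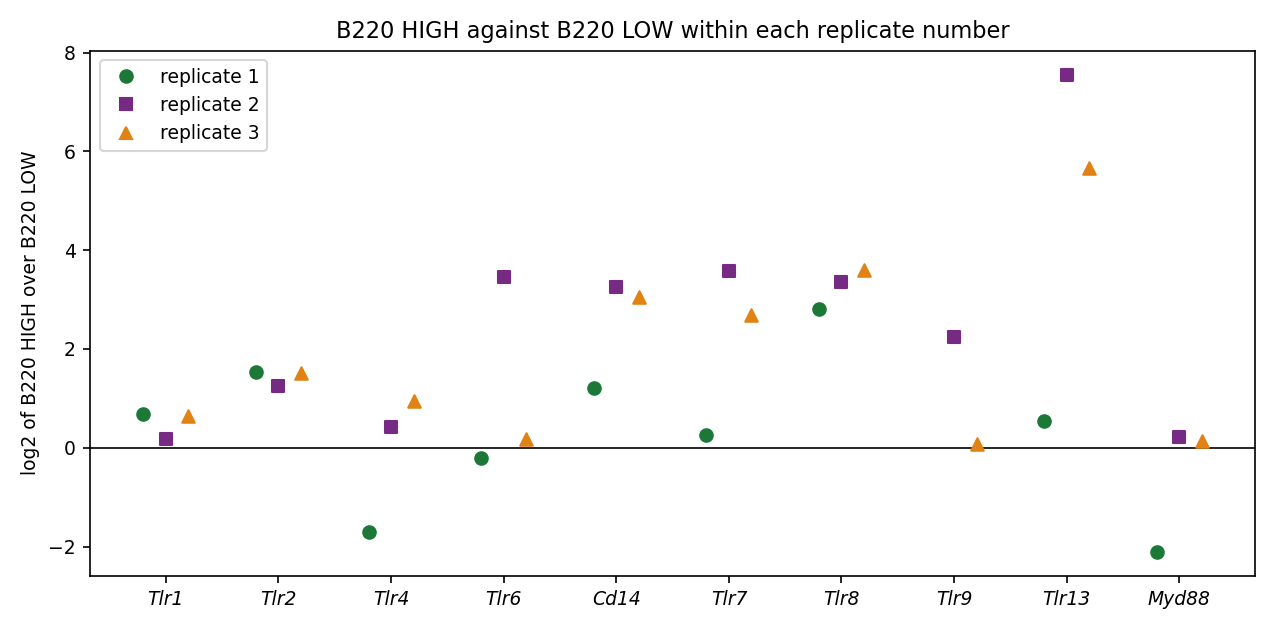
Log2 ratio of B220 HIGH over B220 LOW within each replicate number for the 10 genes. Each point is 1 pair of libraries, and Tlr9 has no point for number 1, where B220 LOW had 0 counts. Tlr2 and Tlr8 lie above 0 and close together over the 3 numbers, Tlr13 ranges from 1.47 to 188 as a ratio, and Tlr4, Tlr6 and Myd88 lie below 0 for number 1 only.

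Of the pathway lists, 0 of 85 tested genes passed between the sorts by edgeR, 22 had an unadjusted p under 0.05 (880 of 12564 over all genes tested), and 8 passed with the replicate block (0.629% over all genes tested), all higher in B220 HIGH. Of these, 4 are target genes. Il1rn had 79.7, 430 and 943 CPM in B220 HIGH and 7.14, 18.2 and 41.3 CPM in B220 LOW (log2 change 4.52, edgeR adjusted p = 0.377, and 4.25 with adjusted p = 0.000392 under the block). Ccl4 had 23.1, 172 and 494 CPM in B220 HIGH and 4.65, 19.3 and 34.2 CPM in B220 LOW (3.65, adjusted p = 0.60 by edgeR, and 3.19 with adjusted p = 0.00362 under the block). The other two were the chemokine genes Cxcl2 (3.67, edgeR adjusted p = 0.688, and 0.0107 under the block) and Ccl3 (3.19, edgeR adjusted p = 0.412, and 0.0281 under the block), whose span overlaps that of Ccl4. In all of these the 3 ratios within numbers pointed to B220 HIGH.

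The remaining 4 were Cd180, a relative of TLR4 on B cells and myeloid cells, the histidine transporter gene Slc15a3 (whose span overlaps Tmem132a), the protease gene Lgmn and the adaptor gene Scimp. Cd180 had 68.5, 116 and 102 CPM in B220 HIGH and 25.1, 17.9 and 7.40 CPM in B220 LOW, with no overlap and a log2 change of 2.61 (edgeR adjusted p = 0.164, and 0.0465 under the block). Slc15a3 changed by 3.92 (edgeR adjusted p = 0.412, and 0.0178 under the block) and Lgmn by 3.04 (edgeR adjusted p = 0.642, and 0.0463 under the block). Scimp had 486 counts in B220 HIGH and 1 in B220 LOW, a ratio of 434 whose 95% interval from counting error ran from 77.5 to 17179 (edgeR adjusted p = 0.20, and 0.0340 under the block). The monocyte and macrophage markers, summing to 1361, 4431 and 6171 CPM in B220 HIGH and 935, 838 and 1299 CPM in B220 LOW, were likewise higher in B220 HIGH and lowest there in library 1. Primary granule genes went the other way without overlap, at 455, 1351 and 563 CPM in B220 HIGH and 1599, 7087 and 4075 CPM in B220 LOW. Stem cell genes summed to 447 to 515 CPM in B220 HIGH and 193 to 309 CPM in B220 LOW, also without overlap. A different gene led that sum in each B220 HIGH library: Meis1 (254 CPM) in 1, Ly6a (285 CPM) in 2 and Cd34 (289 CPM) in 3. Kit was lower in B220 HIGH within each number, at 41.8, 40.3 and 7.28 CPM against 53.3, 61.8 and 9.56 CPM. By edgeR 0 of 9 tested stem cell genes passed. Mature neutrophil markers ranged from 198 to 16613 CPM in B220 HIGH and from 834 to 3719 CPM in B220 LOW, and the part of these lists in the values of the 10 genes and the pathway was not tested.

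**Figure D5:**
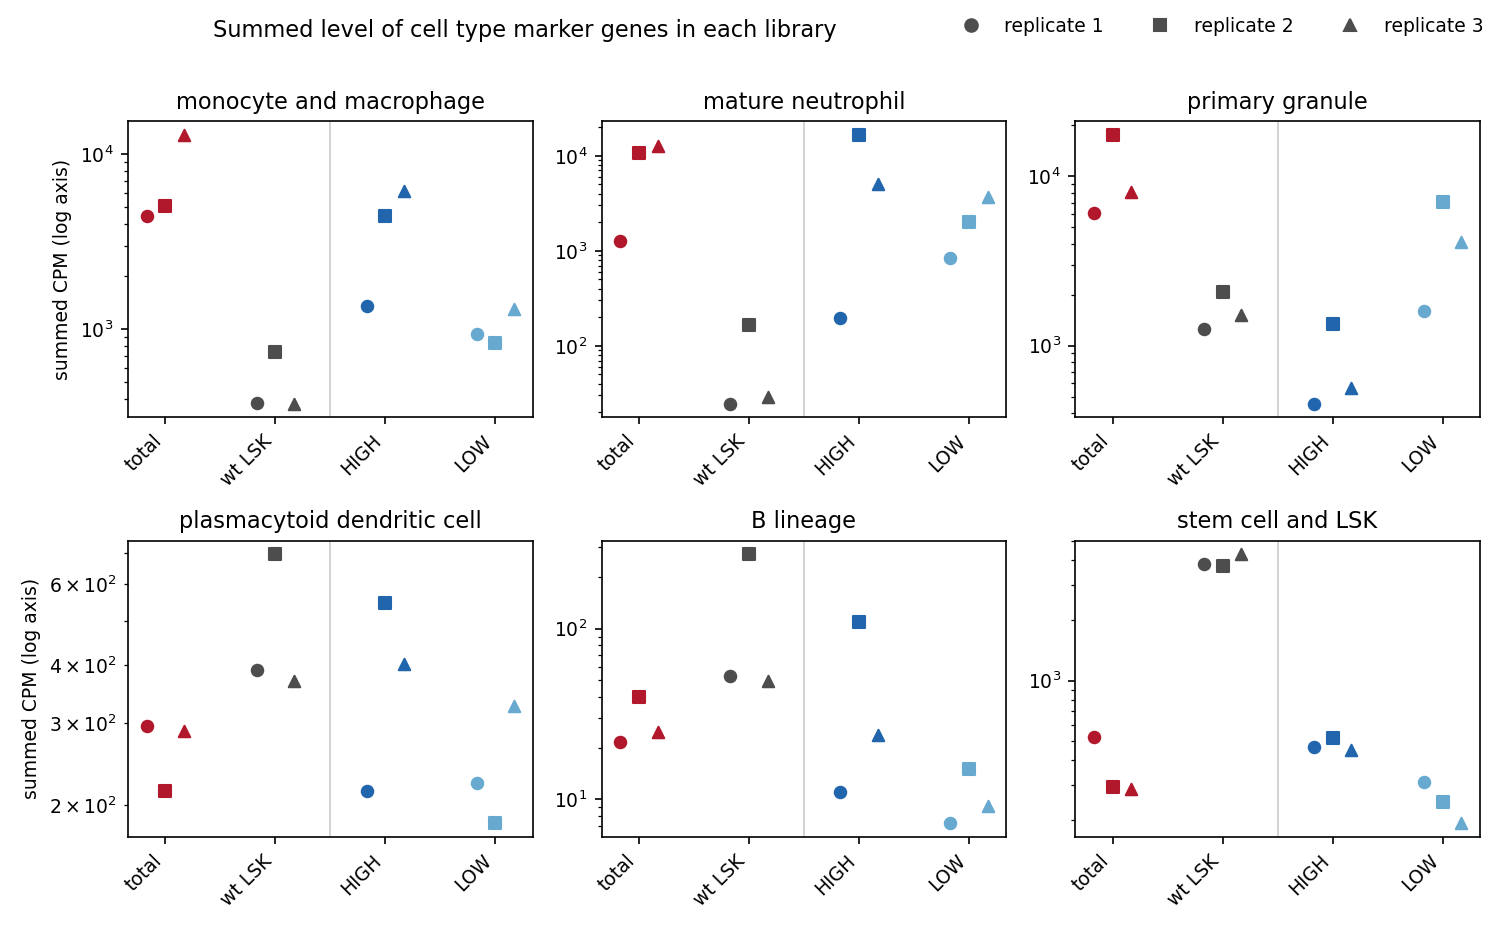
Summed level of 6 lists of cell type marker genes in every library, in CPM on a log axis. Each point is 1 library. Monocyte and macrophage genes lie between 4397 and 12838 CPM in iMLL-ENL total against between 376 and 740 CPM in wt LSK, and B220 HIGH library 1 lies below the other two libraries of its sort for these and for the mature neutrophil genes.

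Across all 4 groups the order of the means can be read with no test, since the sorted and the total groups come from separate tables. Tlr1 averaged 55.1 ± 9.0 CPM in B220 HIGH, 43.5 ± 6.83 in iMLL-ENL total, 38.8 ± 4.55 in B220 LOW and 1.86 ± 1.45 in wt LSK (SD, n = 3), and only the step to wt LSK had no overlap of libraries. Tlr13 averaged 133 ± 110 CPM in B220 HIGH and 133 ± 58.5 in iMLL-ENL total, which overlapped, against 4.96 ± 4.35 in B220 LOW and 2.28 ± 2.15 in wt LSK, which also overlapped. Cd14 was ordered B220 HIGH at 170 ± 137 CPM, iMLL-ENL total at 157 ± 134, B220 LOW at 21.0 ± 13.4 and wt LSK at 0.947 ± 1.41, with a step free of overlap only to wt LSK. For these 3 genes the libraries of B220 HIGH and iMLL-ENL total covered overlapping ranges.

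Tlr8 and Tlr9 stood in another order. Tlr8 averaged 33.0 ± 26 CPM in iMLL-ENL total, 6.75 ± 6.16 in B220 HIGH, 0.603 ± 0.476 in B220 LOW and 0.540 ± 0.482 in wt LSK, and the libraries of iMLL-ENL total lay above all of the sorted ones. Tlr9 averaged 24.0 ± 18.6 CPM in iMLL-ENL total, 5.40 ± 4.27 in wt LSK, 3.56 ± 4.57 in B220 HIGH and 0.700 ± 1.01 in B220 LOW, with overlap at each step. Tlr7 averaged 98.7 ± 77.1 CPM in B220 HIGH, 78.3 ± 23.4 in iMLL-ENL total, 62.5 ± 34.4 in wt LSK and 15.0 ± 8.39 in B220 LOW, where all libraries lay below those of wt LSK. For Tlr2, Tlr4 and Myd88 each neighbouring pair of groups overlapped, and for Tlr6 the step between iMLL-ENL total and B220 LOW alone did not.

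Genes with the pattern most like that of a member were taken by the smallest root mean square difference of centred log2(CPM + 1) over the 12 libraries, for the 3 members whose group means ranged most. For Cd14 these were C5ar1 (0.72), Ccr1 (1.0) and Clec4a2 (1.02), against a median of 2.88 over 12210 candidate genes. For Tlr13 they were Pid1 (0.73), Pla2g7 (0.97) and Lyz2 (1.0), against a median of 2.78. For Tlr1 they were Pstpip2 (0.40), Fcgr2b (0.45) and Gapt (0.45), against a median of 1.91. The distances are a description over libraries that share groups and depth.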

How the data were processed

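RNA was measured in 12 libraries made with an unstranded kit, per the labels' protocols. The deposited count tables hold raw counts per NCBI gene ID for 24028 genes, 1 table for iMLL-ENL total and wt LSK and 1 for the B220 sorts. Values in the deposited CPM tables are a signal. Within each library they were the counts scaled by 1 constant factor, as a check against the counts showed. The check took that factor from the deposited values, so it cannot tell whether the factor is TMM. The deposited gene width in bases (unit: other) set levels per kilobase. The submitters' processing notes name edgeR, GRCm38 and mm10. The aligner is not given in the sources used here. A RefSeq annotation of GRCm38 gave symbols for 23968 IDs.

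Genes were tested within each table with edgeR 4.0.16 in R 4.3.3, by its two-sided quasi-likelihood F test (robust dispersions, TMM factors) after filterByExpr at a minimum count of 10, and called at a Benjamini-Hochberg adjusted p under 0.05 over all genes. Alternatives were RLE, no filter, DESeq2 1.42.0, limma-voom (limma 3.58.1), the replicate block, a fold change of at least 1.5, one fit over 12 libraries and each library left out. The tests were tried on simulated counts without a replicate effect, so that trial cannot speak to the pairing or to the block. Deviations of same-numbered libraries correlated across genes at 0.397, 0.198 and 0.307 between the B220 sorts, all over 0.1, so the numbers were taken to pair them, on the basis of this check alone. No 2 libraries of the same group agreed within counting noise, and pairs across groups were not checked. Intervals cover counting error only.

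Members and lists were chosen with earlier results of these data known. Named were all 10 members, each called gene of a list with 4 or fewer called and otherwise the 2 smallest p per direction, and the 3 nearest genes of 3 members. For the second comparison, the genes called under the block were named after their values were seen. Ly96, Tlr3, Il1rl1 and single marker genes were also named after their values were seen. Of the lists, Tasl was not matched in the tables.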

Additional observations from a re-analysis of the deposited data

How the results depend on the processing

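Of 129 values for the 10 genes in iMLL-ENL total against wt LSK, 112 kept both direction and side of the threshold, 14 no longer passed, 3 newly passed and 0 changed sign. Of 130 for the B220 sorts the numbers were 120, 0, 7 and 3. The changes of sign were Tlr4 at -0.0157 with the replicate block and between -0.11 and 0.93 with 1 library left out, and Myd88 between -0.78 and 0.0916 with 1 library left out. In iMLL-ENL total against wt LSK, one fit over all 12 libraries called 2411 genes, 4 of the 10 and 10 pathway genes, and a fold change of at least 1.5 left 16 pathway genes. With 1 library left out, 2636 to 4528 genes, 5 to 9 of the 10 and 15 to 32 pathway genes passed, with 2658 genes without wt LSK library 1 and 2636 without library 3. The numbers there do not pair libraries (correlations of 0.0164, 0.160 and -0.0358), and the replicate block called 4048 genes, 6 of the 10 and 26 pathway genes. Between the B220 sorts, no filter called 22 genes and 1 pathway gene, DESeq2 302, 3 of the 10 and 12 pathway genes, limma-voom 1 gene, the block 79, 1 of the 10 and 8 pathway genes, and one fit over all 12 libraries 31 genes and 2 pathway genes. With 1 library left out, 0 to 96 genes, 0 to 3 of the 10 and 0 to 8 pathway genes passed, with 96 without B220 HIGH library 1 and 3 without B220 LOW library 1. The cause of these moves was not tested, except that leaving out a library leaves fewer samples. The block changed no call of the 10 between the sorts other than that of Cd14. Depth limits Tlr8 and Cd14 in wt LSK and Tlr9 and Tlr8 in B220 LOW, where single libraries held few or 0 counts.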

Other observations

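Il1rl1, which encodes ST2, the IL-33 receptor of mast cells and a listed inhibitor of Toll-like receptor signalling, had 26, 0.698 and 6.32 CPM in B220 HIGH and 0, 0 and 0.180 CPM in B220 LOW. That is 423 against 3 counts, a ratio of 126 whose 95% interval from counting error ran from 42.8 to 613 (edgeR adjusted p = 0.377), and the gene was singled out after its values were seen. The 7 eosinophil, basophil and mast cell markers summed to 1263, 125 and 1303 CPM in B220 HIGH. In B220 LOW they summed to 25.4, 38.8 and 64.3 CPM. By edgeR 0 of the 6 tested passed, and their log2 changes ran from -0.15 for Mcpt8 to 6.92 for Cpa3. Cpa3, a mast cell protease gene and the largest part of the sum in B220 HIGH libraries 1 and 3, had 819, 52.5 and 876 CPM in B220 HIGH and 2.88, 0 and 11.4 CPM in B220 LOW. Library 2 of B220 HIGH had the lowest marker sum and the lowest Cpa3 of its sort. It had the highest sum of conventional dendritic cell markers, at 913 CPM against 79.2 and 80.2 CPM in the other B220 HIGH libraries. Most of that sum was H2-Ab1, at 74.4, 783 and 50.5 CPM in B220 HIGH. Itgax, Zbtb46, Ciita, Cd209a and Batf3 were also highest in library 2 of that sort, at lower levels, while Xcr1 and Clec9a were not.

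Tlr3, the receptor of double-stranded RNA and the Toll-like receptor that does not use MyD88, had 0, 3.39 and 0 CPM in iMLL-ENL total against 7.73, 9.88 and 12.1 CPM in wt LSK (edgeR adjusted p = 0.168). It had 3.85, 2.29 and 0.556 CPM in B220 HIGH and 0 counts in each B220 LOW library.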
